A study of Homo sapiens with 21 samples.

Results

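HL-60, a human promyelocytic leukaemia line, was transduced with either of 2 short hairpin RNAs against SYK, and the comparison described here sets shSYK_2 against shSYK_1. It rests on 4 of the 21 arrays of the series, 2 per hairpin, chosen by the sample titles. The series also holds 3 HL-60 arrays of a hairpin against luciferase (shLuc, a control with no human target) and the same 3 groups in MOLM-14 and U937, also human myeloid leukaemia lines. All groups went through puromycin at 1 µg/ml from 48 h after infection and gave total RNA at day 5, so the controls share the infection and the drug. Each array read a pool of transduced cells of 1 line. The sample titles number the replicates without saying whether they were separate transductions. The p-values cover only variation between such replicates, with a spread pooled over 9 groups in 3 lines. Values are log2 intensities from RMA, a method that corrects background, scales arrays together and summarises the probes of each probe set. RMA compresses differences, most of all at low intensity, and 12165 genes were tested.

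SYK is a cytoplasmic tyrosine kinase that passes signals from immune receptors and integrins to phospholipase C gamma, PI3 kinase and the ERK pathway. HL-60 cells carry an amplified MYC gene, make large amounts of the enzymes of primary granules, and can mature towards neutrophils, monocytes or eosinophils. A hairpin is cut in the cell into a short guide strand that pairs with its target RNA. Like a microRNA, a guide can also act on other RNAs through its seed, bases 2 to 8, so separate hairpins against one gene are used to set shared effects apart from those of a single hairpin.

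The target sequences in SYK, as given in the labels, are shown because they are the designed difference between the groups compared. Capitals mark letters 14 to 20, which face the seed of a fully complementary guide.
shSYK_1: gcagcagaacagaCATGTCAa
shSYK_2: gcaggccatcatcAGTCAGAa
Both targets are 21 bases long and share their first 4 bases. The seeds they imply, TGACATG for shSYK_1 and TCTGACT for shSYK_2, are equal at 2 of 7 positions. Neither seed occurs among 2370 human mature microRNAs of RefSeq. The guide strand that cells actually made was not measured, and seed matches in other transcripts were not searched.

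The labels of HL-60 shSYK_2 replicate 1 disagree with each other. Its title and treatment name shSYK_2 and its source name says shSYK_1. It was kept as shSYK_2, and values of the HL-60 hairpin difference without it are given where leaving it out ends a call or moves a count by over 1.5 times. Of 660 genes that were higher with shSYK_2 than with shSYK_1 in both MOLM-14 and U937, 471 (71.4%) lay above both shSYK_1 arrays on this array, and 538 (81.5%) did so on HL-60 shSYK_2 replicate 2. Of 609 genes lower in both other lines, 543 (89.2%) and 525 (86.2%) lay below both shSYK_1 arrays. The array thus fell on the shSYK_2 side for most of these genes, measured in lines it does not come from. Shares over all genes were not taken for single arrays. A lower scale, as on this array, can by itself place bright genes below shSYK_1, so the counts do not settle its label. The array also stood apart in scale. Its upper quartile of intensity was 122 against 134 to 140 on the other 20 arrays, and the HL-60 shSYK_2 replicates differed by a median of 0.172 on the log2 scale against 0.0852 to 0.115 in 14 other replicate pairs.

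A gene is called higher or lower here where limma's adjusted p, over all 12165 genes, was below 0.05 for shSYK_2 minus shSYK_1 in HL-60, and "rose" or "fell" is kept for a call against shLuc. Of the genes tested, 2704 (22.2%) were called, 1167 higher (9.59%) and 1537 lower (12.6%). Differences were mostly moderate, with a median size of 0.46 among called genes, and 149 reached 1 in size, 36 of them higher and 113 lower. Without HL-60 shSYK_2 replicate 1, 1604 genes were called (13.2%; 824 higher, 6.77%, and 780 lower, 6.41%), without shSYK_1 replicate 1 the count was 1529, and without shSYK_2 replicate 2 it was 3596 (29.6%; 12.7% higher and 16.9% lower). A core of 1228 genes (10.1%), 517 higher (4.25%) and 711 lower (5.84%), was called in the full set and also without either shSYK_2 array. The balance of directions moved with the scaling: 43.2% of called genes were higher as deposited, 61.3% with each array centred on its median (1791 higher and 1132 lower) and 50.4% after quantile normalisation. Placed in shSYK_1, the array with conflicting labels left 32 genes called. The main fit shared its spread with groups whose replicates differed less than the HL-60 shSYK_2 pair. With HL-60 arrays only, 1252 genes were called, and with less weight for noisier arrays, 1274. With the dimmest 40% of genes left out, 2749 were called, 1081 higher and 1668 lower, so brighter genes were called more often. The list shares below are set against all genes, dim ones included. How much of a list's excess reflects brightness was not tested.

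Set against shLuc, the 1167 higher genes were in large part genes that fell with shSYK_1 and did not pass with shSYK_2 (501 genes, 42.9%), and 261 did not pass with shSYK_1 and rose with shSYK_2. Of the 1537 lower genes, 549 (35.7%) rose with shSYK_1 alone and 429 (27.9%) fell with shSYK_2 alone. Opposite calls were fewer, with 29 genes that fell with shSYK_1 and rose with shSYK_2 and 87 that did the reverse. These 3 comparisons share arrays, so the classes describe where each difference sits and are no further evidence for it. Against shLuc, 2953 genes were called with shSYK_1 (24.3%; 12.5% rose and 11.8% fell) and 2611 with shSYK_2 (21.5%; 10% rose and 11.4% fell).

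SYK, the target of both hairpins, measured 7.04 and 7.0 with shSYK_1 and 6.66 and 6.90 with shSYK_2, against 8.91 to 9.05 with shLuc. Both hairpins lay far below the control, and both shSYK_2 arrays lay below both shSYK_1 arrays. The difference between hairpins was -0.24 (SE 0.0895, 95% interval -0.43 to -0.05, limma adjusted p = 0.0716), and it was -0.11 without HL-60 shSYK_2 replicate 1 (0.523). It did pass without shSYK_2 replicate 2 (-0.36, limma adjusted p = 0.0118). Read by its other probe set, SYK differed by 0.11, also short of the threshold. The depth of the knockdown was thus not shown to differ in HL-60. By the brighter probe set, SYK was lower with shSYK_2 in both other lines, by -0.67 (MOLM-14) and -0.44 (U937), each past the threshold.

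MYC and FLT3 were both higher with shSYK_2. MYC, the transcription factor that drives growth genes, measured 12.02 and 11.92 with shSYK_1, 12.26 and 12.30 with shSYK_2 and 12.71 to 12.93 with shLuc. It lay below shLuc with both hairpins, and the shSYK_2 arrays lay between, 0.31 above shSYK_1 (SE 0.0755, limma adjusted p = 0.00691). The value was 0.33 without HL-60 shSYK_2 replicate 1 (0.0269) and lost its call without shSYK_1 replicate 2 (0.26, limma adjusted p = 0.0672).

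FLT3, the receptor for FLT3 ligand on early blood cells, measured 6.14 and 6.27 with shSYK_1, 7.0 and 7.15 with shSYK_2 and 6.98 to 7.24 with shLuc. The shSYK_2 arrays overlapped the control and the shSYK_1 arrays did not. The hairpins differed by 0.87 (SE 0.159, limma adjusted p = 8.85e-04), and by 0.94 without HL-60 shSYK_2 replicate 1 (0.00473). Against shLuc, FLT3 changed by -0.90 with shSYK_1 (limma adjusted p = 1.69e-04) and by -0.03 with shSYK_2 (0.905).

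**Figure D1:**
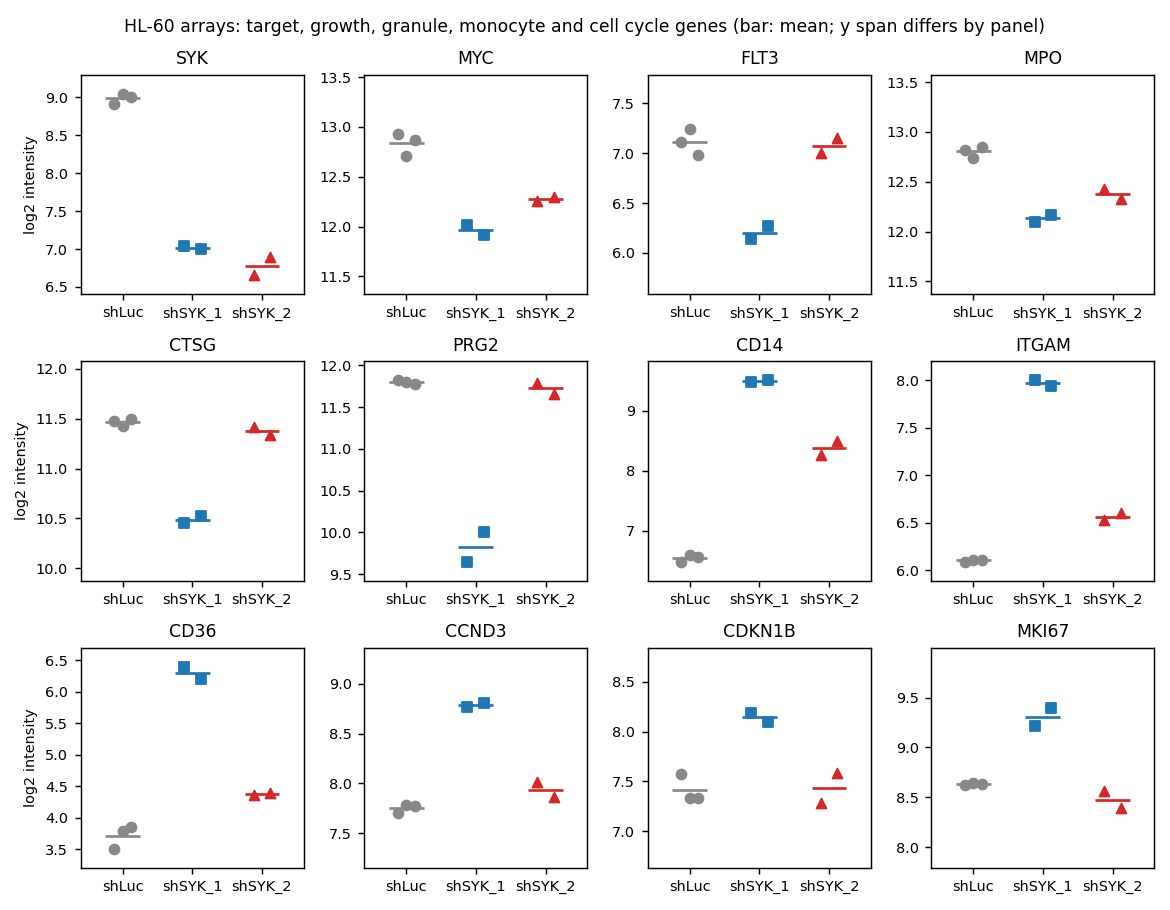
Log2 intensity of 12 genes on each HL-60 array with shLuc (grey), shSYK_1 (blue) and shSYK_2 (red), with a bar at each group mean. FLT3, CTSG, PRG2 and CDKN1B lie near shLuc with shSYK_2 and away from it with shSYK_1, while CD14 lies above shLuc with both hairpins and SYK far below it. MPO was plotted although it was not called (0.25, limma adjusted p = 0.239).

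Differences were ranked among called genes whose hairpin groups did not overlap and whose higher group had a mean of at least 6 on the log2 scale. This level was met through the higher group only by 4 of the 12 genes largest upwards and 9 of the 12 largest downwards, whose other group lay under it. The 12 genes with the largest higher values with shSYK_2 were ITM2C, MLC1, PRG2, NFU1, OPN3, COCH, UROS, MXRA7, PLAGL1, CD2BP2, RETN and LAMP5, with differences from 2.16 down to 1.27. All 12 kept their call without either shSYK_2 array. Of these, 9 fell with shSYK_1 and did not pass against shLuc with shSYK_2. ITM2C, which encodes a membrane protein, measured 5.93 and 6.11 with shSYK_1, 8.27 and 8.10 with shSYK_2 and 7.68 to 7.84 with shLuc. It lay below the control with shSYK_1 and above it with shSYK_2, a difference of 2.16 (SE 0.0789, limma adjusted p = 7.62e-11).

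PRG2, the major basic protein of eosinophil granules, measured 9.65 and 10.00 with shSYK_1, 11.79 and 11.66 with shSYK_2 and 11.78 to 11.82 with shLuc. The shSYK_1 arrays stood alone below the rest, and the difference was 1.90 (SE 0.129, limma adjusted p = 4.25e-08). NFU1, an iron-sulphur cluster assembly factor of mitochondria, and UROS, an enzyme of haem synthesis, had the same layout. NFU1 was 6.60 and 6.55 with shSYK_1, 8.33 and 8.30 with shSYK_2 and 8.14 to 8.27 with shLuc. UROS was 6.29 and 6.24 with shSYK_1, 7.85 and 7.89 with shSYK_2 and 7.73 to 7.87 with shLuc. RETN, which encodes the secreted protein resistin, was the exception among the 12, since it did not pass with shSYK_1 and rose with shSYK_2. It measured 6.96 and 7.0 with shSYK_1, 8.25 on both shSYK_2 arrays and 6.87 to 7.22 with shLuc, a hairpin difference of 1.27 (limma adjusted p = 7.93e-06).

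By the same ranking, the 12 genes with the largest lower values with shSYK_2 were OLR1, TREM2, MED21, SNX10, CD36, CCNE2, COLEC12, KAT2B, MYOF, PTX3, LYPLA1 and ERGIC2, with differences from -2.76 to -1.61. All 12 were called without either shSYK_2 array as well. They were of several kinds against shLuc: 3 rose with both hairpins and less with shSYK_2 (OLR1, CD36 and COLEC12, scavenger receptors, of which CD36 and COLEC12 did not pass against shLuc without HL-60 shSYK_2 replicate 1), 3 rose with shSYK_1 alone, 3 rose with shSYK_1 and fell with shSYK_2, and 3 fell with shSYK_2 alone. OLR1 measured 7.22 and 6.98 with shSYK_1, 3.96 and 4.74 with shSYK_2 and 2.75 to 3.17 with shLuc. Its shSYK_2 arrays lay nearer to the control, and the difference was -2.76 (SE 0.179, limma adjusted p = 3.09e-08).

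The genes that fell with shSYK_2 alone were MED21, a subunit of the Mediator complex, LYPLA1, a thioesterase that removes palmitate from proteins, and ERGIC2, a protein of the early secretory pathway. MED21 measured 7.68 and 7.66 with shSYK_1, 5.20 and 5.79 with shSYK_2 and 7.73 to 7.88 with shLuc. Here the shSYK_2 arrays stood alone, with a difference of -2.18 (SE 0.135, limma adjusted p = 2.18e-08). ERGIC2 measured 10.09 and 10.06 with shSYK_1, 8.24 and 8.68 with shSYK_2 and 9.84 to 9.93 with shLuc. LYPLA1 measured 10.12 and 9.89 with shSYK_1, 8.16 and 8.51 with shSYK_2 and 9.87 to 10.07 with shLuc.

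**Figure D2:**
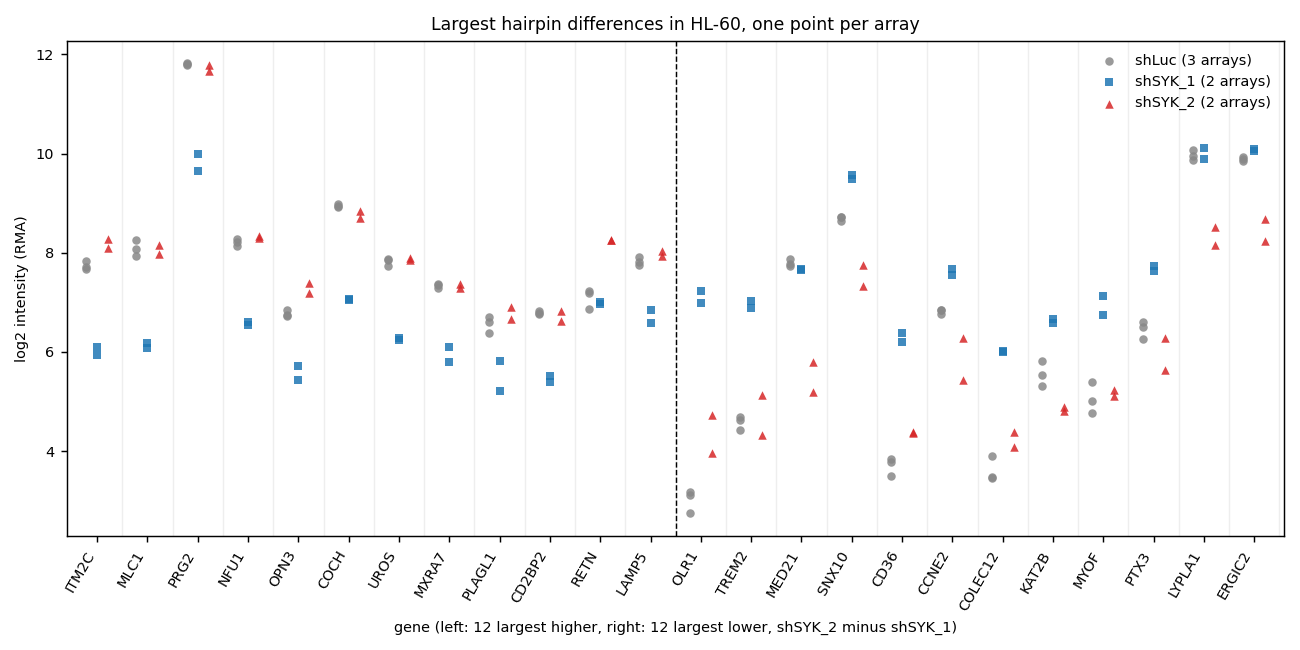
Log2 intensity on each HL-60 array of the 12 genes with the largest higher (left of the dashed line) and the 12 with the largest lower (right) values with shSYK_2, among genes with a mean of at least 6 in the higher hairpin group, with shLuc in grey, shSYK_1 in blue and shSYK_2 in red. Among the 12 at left, shSYK_1 lay below the control in all but RETN, and shSYK_2 lay above it in RETN, ITM2C and OPN3, while MED21, LYPLA1 and ERGIC2 at right had shSYK_2 apart.

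Genes of primary granules, the stores of proteases and peroxidase that mark promyelocytes, were higher with shSYK_2 in 6 of 15 measured members (40%, against 9.59% of all genes) and lower in 0. Their median difference was 0.28 against 0.02 for all genes tested, and the count was also 6 higher and 0 lower without HL-60 shSYK_2 replicate 1. Against shLuc, 7 members fell and 2 rose with shSYK_1, and 2 fell and 3 rose with shSYK_2. The called members were CTSG, AZU1, CST7, RNASE2, NKG7 and DEFA4. Of these, CTSG, AZU1 and DEFA4 are products of primary granules. RNASE2 is also counted among the eosinophil markers below, and CST7 and NKG7 are not specific to these granules. CTSG, the protease cathepsin G, measured 10.45 and 10.52 with shSYK_1, 11.42 and 11.34 with shSYK_2 and 11.43 to 11.50 with shLuc. Only the shSYK_1 arrays stood well below the control, and the difference was 0.90 (SE 0.0688, limma adjusted p = 1.61e-07).

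AZU1, the antimicrobial protein azurocidin, measured 6.23 and 6.13 with shSYK_1, 7.08 and 7.26 with shSYK_2 and 6.90 to 7.11 with shLuc, a hairpin difference of 0.99 (limma adjusted p = 3.39e-07). MPO, ELANE and PRTN3, the best known products of these granules, were not called. MPO was 12.10 and 12.17 with shSYK_1, 12.43 and 12.33 with shSYK_2 and 12.74 to 12.85 with shLuc, so it lay below the control with both hairpins. ELANE differed by 0.09 (limma adjusted p = 0.456) and PRTN3 by 0.12 (0.506).

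Of 29 measured genes of secondary granules and late neutrophils, 1 was higher and 8 were lower (27.6%, against 12.6% of all genes), with 4 lower without HL-60 shSYK_2 replicate 1. Against shLuc, 14 rose and 1 fell with shSYK_1, and 11 rose and 1 fell with shSYK_2. ITGAM, the integrin CD11b, measured 8.0 and 7.94 with shSYK_1, 6.53 and 6.60 with shSYK_2 and 6.09 to 6.11 with shLuc. Both hairpins lay above the control, shSYK_2 by much less, and the hairpins differed by -1.40 (SE 0.121, limma adjusted p = 5.50e-07). This was by the brighter ITGAM probe set. The other changed by -0.34 with shSYK_1 and -0.07 with shSYK_2 against shLuc, and by 0.27 between hairpins (limma adjusted p = 0.23). The mean of the ITGAM probe sets gave -0.56. The calcium-binding proteins S100A8 and S100A9 were lower by -0.61 (limma adjusted p = 0.00294) and -0.86 (3.14e-04), and the mean of the S100A8 probe sets gave -0.21. CSF3R, the G-CSF receptor, was the single higher member, with 6.08 and 5.89 with shSYK_1 and 6.63 and 6.51 with shSYK_2 (0.59, limma adjusted p = 0.00137). The granule genes LTF, CAMP and LCN2 of mature neutrophils were near the low end of the scale in every HL-60 group (at most 4.51 on any array) and were not called. HP, which encodes haptoglobin, was lower by its brightest probe set (-0.57) and had another 2 probe sets at 0.79 and 0.45, so its direction is uncertain.

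Monocyte and macrophage genes were lower with shSYK_2 in 20 of 42 measured members (47.6%, against 12.6% of all genes). They were higher in 4 (9.52%, against 9.59%), with a median of -0.24. Without HL-60 shSYK_2 replicate 1 the counts were 13 and 2, and without shSYK_1 replicate 1 they were 15 and 1. Both hairpins had raised these genes over shLuc: 30 members rose with shSYK_1, with a median of 1.02, and 25 rose with shSYK_2, with a median of 0.49. CD14, the monocyte co-receptor for lipopolysaccharide, measured 9.48 and 9.51 with shSYK_1, 8.27 and 8.50 with shSYK_2 and 6.48 to 6.60 with shLuc. The 3 groups did not overlap, and the hairpins differed by -1.11 (SE 0.163, limma adjusted p = 1.47e-04).

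Members that stayed at or near the control with shSYK_2 included VSIG4, a complement receptor of macrophages, and TREM2, a lipid-sensing receptor. VSIG4 measured 5.67 and 5.56 with shSYK_1, 3.48 and 3.37 with shSYK_2 and 3.12 to 3.49 with shLuc. Its difference of -2.19 (limma adjusted p = 7.33e-09) was left out of the ranking above by its level. TREM2 measured 7.03 and 6.89 with shSYK_1, 4.33 and 5.14 with shSYK_2 and 4.43 to 4.69 with shLuc. CD36, a fatty acid and scavenger receptor, measured 6.39 and 6.21 with shSYK_1, 4.36 and 4.39 with shSYK_2 and 3.51 to 3.85 with shLuc, so it lay above the control with both hairpins. LGALS3 and FCN1, a lectin and a ficolin of monocytes, were lower by -0.74 (limma adjusted p = 3.10e-05) and -0.94 (1.04e-04). FCGR2B was lower by -0.88, but its probe set can bind the near-identical FCGR2A.

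The higher members ran the other way. LY86, the partner of the Toll-like receptor homologue CD180, measured 6.72 and 6.77 with shSYK_1, 7.46 and 7.35 with shSYK_2 and 5.69 to 5.75 with shLuc. It rose with both hairpins and more with shSYK_2, by a further 0.66 (SE 0.0722, limma adjusted p = 7.58e-06). The chemokine CCL2 also rose with both and was 0.63 higher with shSYK_2 (limma adjusted p = 0.0128), and without HL-60 shSYK_2 replicate 1 that difference was 0.63 (0.0674). In bulk RNA, fewer cells that make a transcript and less of it per cell cannot be told apart.

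Among 30 measured myeloid transcription factors, 9 were lower (30%) and 1 was higher (3.33%), and 7 and 0 without HL-60 shSYK_2 replicate 1. With arrays centred, 8 were lower and 4 higher. In the full set, 12.6% of all genes were lower and 9.59% higher. PPARG, a lipid-activated factor of macrophages, measured 6.89 and 6.94 with shSYK_1, 5.58 and 5.48 with shSYK_2 and 4.69 to 5.14 with shLuc. CEBPB and KLF4, which promote monocyte genes, were lower by -0.61 (limma adjusted p = 2.39e-04) and -0.70 (8.11e-04), and each lay above shLuc with both hairpins. LMO2, a bridging factor of early blood cells, was different, with 9.53 and 9.42 with shSYK_1, 8.53 and 8.42 with shSYK_2 and 8.95 to 9.17 with shLuc. It rose with shSYK_1 and fell with shSYK_2, a difference of -1.0 (SE 0.0914, limma adjusted p = 1.14e-06). The higher member was RUNX1 (0.33, limma adjusted p = 0.00486), a factor with 11 probe sets here, of which 1 was called in the opposite direction, and the call was lost without HL-60 shSYK_2 replicate 1 (0.27, 0.0572). CEBPA, CEBPE and GFI1, factors of the granulocyte line, differed by -0.02, 0.15 and -0.06 (limma adjusted p = 0.863, 0.611 and 0.592).

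**Figure D3:**
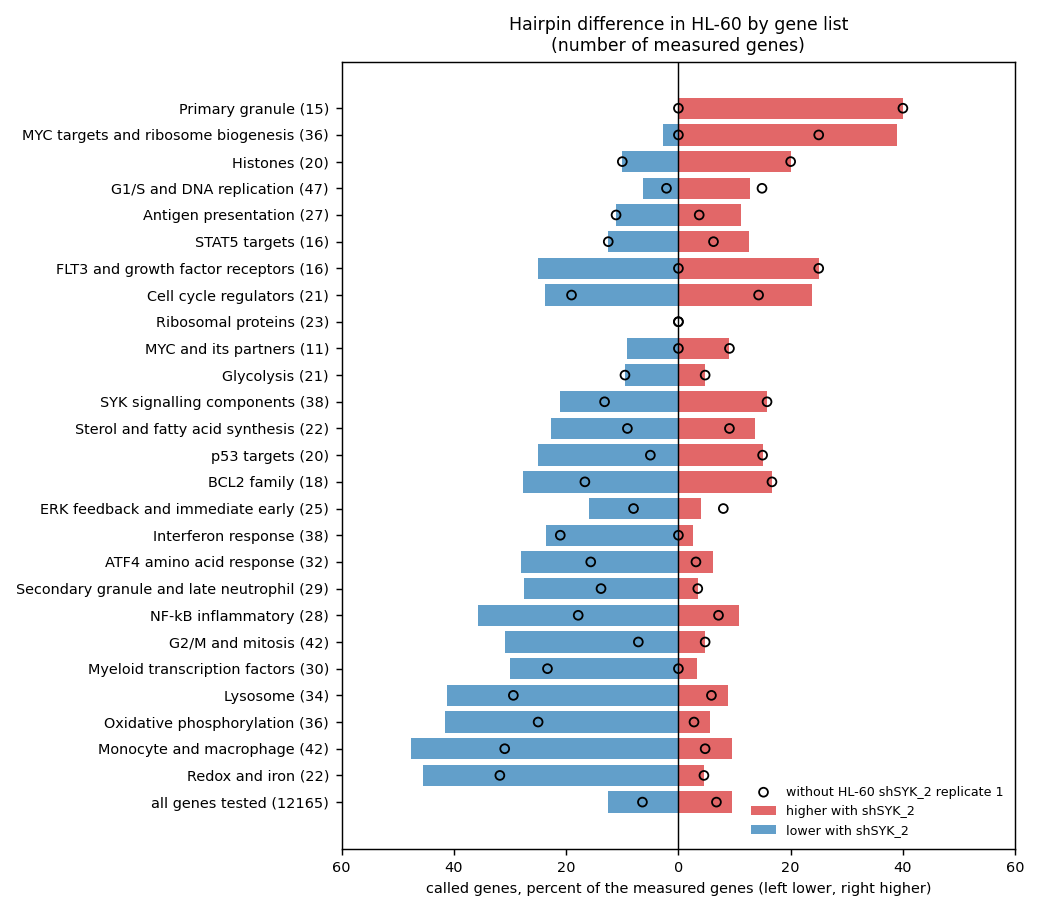
Percent of the measured genes of each list called higher (red, right) or lower (blue, left) with shSYK_2 than with shSYK_1 in HL-60, with open circles for the same share without HL-60 shSYK_2 replicate 1 and all genes tested in the bottom bar. Primary granule genes (40% higher) and MYC targets (38.9% higher) lie at the top, and monocyte and macrophage genes (47.6% lower) and redox and iron genes (45.5% lower) at the bottom. Circles nearer to the centre than the bars mark lists that lost calls, such as G2/M and mitosis.

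Growth genes were compared next. Of 36 measured MYC targets and ribosome biogenesis genes, 14 were higher with shSYK_2 (38.9%, against 9.59% of all genes) and 1 was lower, with a median of 0.18. Without HL-60 shSYK_2 replicate 1 the count was 9 higher and 0 lower, and without shSYK_1 replicate 1 it was 5 and 0. Against shLuc, 31 fell and 0 rose with shSYK_1, with a median of -0.45, and 15 fell and 0 rose with shSYK_2, with a median of -0.18. With shSYK_2, the other 21 members did not pass against shLuc. RRP1B, a nucleolar protein, measured 8.73 and 8.65 with shSYK_1, 9.06 and 9.50 with shSYK_2 and 9.43 to 9.52 with shLuc (0.59, limma adjusted p = 6.01e-04). NCL, the nucleolar protein nucleolin, measured 11.57 and 11.61 with shSYK_1, 11.91 and 11.84 with shSYK_2 and 11.85 to 11.87 with shLuc. DDX21, an RNA helicase of ribosome assembly, was higher by 0.29 (limma adjusted p = 0.00685). NPM1 was the lower member (-0.17, limma adjusted p = 0.0448), a call that was lost without either shSYK_2 array. Of 23 ribosomal protein genes, limma called 0 in the full set and 1 had an unadjusted p below 0.05; 2 were called higher with centred arrays.

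Of 16 measured FLT3 and growth factor receptors, 4 were higher and 4 lower, and 4 and 0 without HL-60 shSYK_2 replicate 1. In the full set that was 25% each way, against 9.59% higher and 12.6% lower of all genes. The higher ones were FLT3, CSF3R, IL3RA and CSF2RB, receptors or receptor chains for FLT3 ligand, G-CSF, IL-3 and the shared beta chain of IL-3, IL-5 and GM-CSF. CSF2RB differed by 0.26 (limma adjusted p = 0.0484), and IL3RA, at most 3.78 on any HL-60 array with a SYK hairpin, by 0.72 (0.0053). The lower ones, MERTK, KIT, CSF2RA and INSR, all had a log2 level under 6 and were not called without HL-60 shSYK_2 replicate 1.

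Of 38 measured SYK signalling components, 6 were higher and 8 lower, with 6 and 5 without HL-60 shSYK_2 replicate 1, 4 and 12 without shSYK_2 replicate 2, and 7 and 5 with arrays centred. In the full set 15.8% were higher and 21.1% lower, against 9.59% and 12.6% of all genes. Higher members included PLCG2, the phospholipase downstream of SYK, INPP5D, the lipid phosphatase SHIP1, STAT5B, and TYROBP, the adaptor DAP12 that recruits SYK. PLCG2 measured 7.40 and 7.65 with shSYK_1, 8.05 and 8.03 with shSYK_2 and 7.62 to 7.75 with shLuc (0.51, limma adjusted p = 3.53e-04). TYROBP measured 9.98 and 9.96 with shSYK_1, 10.47 and 10.29 with shSYK_2 and 9.52 to 9.57 with shLuc, so it rose with both hairpins and more with shSYK_2. The SRC family kinase FGR was lower, with 9.03 and 9.09 with shSYK_1, 8.30 and 8.32 with shSYK_2 and 7.72 to 7.78 with shLuc (-0.75, limma adjusted p = 2.53e-04). Of ERK feedback and immediate early genes, 16% were lower and 4% higher, against 12.6% and 9.59% of all genes. JUN and DUSP6, genes switched on by ERK and related kinases, were lower by -0.77 (limma adjusted p = 8.41e-05) and -0.43 (0.00281), within a list of ERK feedback and immediate early genes where 4 of 25 were lower and 1, MYC, was higher (2 lower and 2 higher without HL-60 shSYK_2 replicate 1).

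The cell cycle lists gave mixed results. Among 21 measured cell cycle regulators, 5 were higher and 5 lower, with 3 and 4 without HL-60 shSYK_2 replicate 1 and 2 and 4 without shSYK_1 replicate 1. In the full set that was 23.8% each way, against 9.59% higher and 12.6% lower of all genes. CCND3, the D-type cyclin of G1, measured 8.77 and 8.81 with shSYK_1, 8.01 and 7.86 with shSYK_2 and 7.70 to 7.78 with shLuc. CDKN1B, the cyclin-dependent kinase inhibitor p27, measured 8.19 and 8.10 with shSYK_1, 7.28 and 7.58 with shSYK_2 and 7.33 to 7.57 with shLuc. Both the cyclin and the inhibitor rose with shSYK_1 and neither passed with shSYK_2. The hairpin differences were -0.86 for CCND3 (SE 0.0791, limma adjusted p = 1.14e-06) and -0.72 for CDKN1B (SE 0.109, limma adjusted p = 2.03e-04).

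WEE1, the kinase that restrains entry into mitosis, and TOB1, an antiproliferative protein, fell with shSYK_2 and did not pass with shSYK_1. WEE1 measured 9.24 and 9.14 with shSYK_1, 8.22 and 8.61 with shSYK_2 and 9.28 to 9.33 with shLuc. TOB1 measured 8.61 and 8.60 with shSYK_1, 7.52 and 7.88 with shSYK_2 and 8.41 to 8.45 with shLuc. CDKN2A, the locus of the inhibitors p16 and ARF, was higher by 0.96 (limma adjusted p = 2.48e-04) by its brightest probe set, which fell with shSYK_1. That probe set gave 4.81 and 4.77 with shSYK_1, 5.68 and 5.81 with shSYK_2 and 5.59 to 5.65 with shLuc. Another was higher by 0.66 (limma adjusted p = 0.00859), with 0.11 for shSYK_1 and 0.77 for shSYK_2 against shLuc. The remaining probe set gave 0.31 (0.0899). Which hairpin moved CDKN2A is thus uncertain.

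Of 47 measured G1/S and DNA replication genes, 6 were higher (12.8%) and 3 lower (6.38%), against 9.59% and 12.6% of all genes, and the median was 0.04. Without HL-60 shSYK_2 replicate 1 the counts were 7 higher (14.9%, against 6.77%) and 1 lower (2.13%, against 6.41%). Centring each array on its median gave 16 higher and 2 lower, and leaving out shSYK_2 replicate 2 gave 4 and 7. CCNE2, a cyclin of the G1/S step, had by far the largest difference of its list, with 7.68 and 7.56 with shSYK_1, 5.43 and 6.28 with shSYK_2 and 6.77 to 6.85 with shLuc. It rose with shSYK_1 and fell with shSYK_2, and the hairpins differed by -1.77 (SE 0.215, limma adjusted p = 2.13e-05). Without HL-60 shSYK_2 replicate 1, CCNE2 differed from shLuc by -0.55 with shSYK_2 and did not pass (limma adjusted p = 0.0739). TYMS, thymidylate synthase, and MCM2, a subunit of the replicative helicase, were higher by 0.48 (limma adjusted p = 3.88e-04) and 0.47 (0.00246), both having fallen with shSYK_1.

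Of 42 measured G2/M and mitosis genes, 13 were lower (31%, against 12.6%) and 2 were higher, with a median of -0.11. That count rested on single arrays: it was 3 lower and 2 higher without HL-60 shSYK_2 replicate 1, 3 lower and 1 higher without shSYK_1 replicate 1, and 8 lower and 4 higher with arrays centred on their median. MKI67, the proliferation antigen Ki-67, was called in each of these fits. It measured 9.22 and 9.40 with shSYK_1, 8.56 and 8.39 with shSYK_2 and 8.62 to 8.64 with shLuc. It rose with shSYK_1 and did not pass with shSYK_2, a hairpin difference of -0.83 (SE 0.1, limma adjusted p = 1.97e-05).

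Lysosomal genes, which encode acid hydrolases and the proton pump, were lower in 14 of 34 measured members (41.2%) and higher in 3, with a median of -0.27, and 10 were lower and 2 higher without HL-60 shSYK_2 replicate 1, 10 and 0 without shSYK_1 replicate 1, and 10 and 5 with arrays centred. In the full set, 12.6% of all genes were lower and 9.59% higher. With shSYK_1, 29 members rose and 0 fell against shLuc, and with shSYK_2, 19 rose and 2 fell. CTSA, cathepsin A, measured 10.63 and 10.62 with shSYK_1, 10.02 on both shSYK_2 arrays and 9.77 to 9.81 with shLuc (-0.61, limma adjusted p = 4.80e-06). ATP6V1A, a subunit of the proton pump, measured 10.37 and 10.33 with shSYK_1, 9.48 and 9.71 with shSYK_2 and 9.58 to 9.62 with shLuc. The pump subunit overlapped the control with shSYK_2 and cathepsin A stayed above it.

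Of 36 oxidative phosphorylation genes, 15 were lower (41.7%, against 12.6% of all genes) and 2 higher, with a median of -0.16. The count was 9 lower and 1 higher without HL-60 shSYK_2 replicate 1, and 7 lower and 2 higher both without shSYK_1 replicate 1 and with arrays centred. SDHD, a subunit of succinate dehydrogenase, measured 9.86 and 9.73 with shSYK_1, 9.29 and 9.28 with shSYK_2 and 9.27 to 9.31 with shLuc. SDHA, the catalytic subunit of the same complex, was higher, with 8.02 and 8.03 with shSYK_1, 8.55 and 8.34 with shSYK_2 and 8.41 to 8.56 with shLuc. Both subunits were near shLuc with shSYK_2 and moved in opposite directions with shSYK_1.

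Of 22 redox and iron genes, 10 were lower (45.5%) and 1 higher, and 7 and 1 without HL-60 shSYK_2 replicate 1. After quantile normalisation or centring the counts were 8 lower and 5 higher. In the full set, 12.6% of all genes were lower and 9.59% higher. SLC7A11, the cystine transporter that feeds glutathione synthesis, measured 9.30 and 9.34 with shSYK_1, 8.23 and 8.14 with shSYK_2 and 8.58 to 8.72 with shLuc. It rose with shSYK_1 and fell with shSYK_2, a difference of -1.13 (SE 0.0908, limma adjusted p = 2.63e-07). PRDX2, a peroxide-reducing enzyme, fell with shSYK_2 alone by its brightest probe set. That probe set gave 7.74 and 7.75 with shSYK_1, 6.40 and 6.79 with shSYK_2 and 7.76 to 7.87 with shLuc. Its other probe sets differed by -1.21, -0.27 and -0.0 between the hairpins. The last of them changed by -0.38 against shLuc with both hairpins, so the fall with shSYK_2 alone is uncertain.

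Interferon response genes were lower in 9 of 38 measured members (23.7%) and higher in 1, and in 8 and 0 without HL-60 shSYK_2 replicate 1. With shSYK_1, 16 rose and 0 fell against shLuc, and with shSYK_2, 8 rose and 1 fell. XAF1, a proapoptotic interferon target, measured 6.12 and 5.90 with shSYK_1, 4.33 and 4.84 with shSYK_2 and 5.48 to 5.59 with shLuc. It rose with shSYK_1 and fell with shSYK_2 (-1.43, limma adjusted p = 6.12e-07). ISG15, a ubiquitin-like protein, was lower by -0.48 (limma adjusted p = 0.0014). NF-kB inflammatory genes were lower in 10 of 28 (35.7%) and higher in 3, with 5 and 2 without HL-60 shSYK_2 replicate 1. The cytokine IL1B measured 6.49 and 6.44 with shSYK_1, 5.27 and 5.71 with shSYK_2 and 4.77 to 4.90 with shLuc. For both lists the share of all genes in the full set was 12.6% lower and 9.59% higher.

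In the BCL2 family of cell death regulators, 3 of 18 were higher and 5 lower, and 3 and 3 without HL-60 shSYK_2 replicate 1. In the full set 16.7% were higher and 27.8% lower, against 9.59% and 12.6% of all genes. The survival protein BCL2 measured 7.51 and 7.38 with shSYK_1, 8.08 and 7.99 with shSYK_2 and 8.23 to 8.36 with shLuc. Its relative BCL2A1 measured 10.03 and 9.93, 9.22 and 9.34, and 8.94 to 8.96 in the same order. BCL2 was thus higher with shSYK_2 (0.59, limma adjusted p = 7.06e-04) and BCL2A1 lower (-0.70, 7.74e-05). Histone genes split by kind: of 20 measured, H2BC12, H2AC6, H2BC5 and H2AC8 were higher and the variant histones H2AZ1 and H2AZ2 lower. These were 20% higher and 10% lower, against 9.59% and 12.6% of all genes. H2BC12 measured 9.12 on both shSYK_1 arrays, 9.94 and 9.92 with shSYK_2 and 8.59 to 8.71 with shLuc (0.81, limma adjusted p = 1.83e-06). H2AZ1 measured 12.42 and 12.32 with shSYK_1, 11.69 and 11.71 with shSYK_2 and 12.22 to 12.39 with shLuc (-0.67, limma adjusted p = 5.71e-06). Probe sets of the clustered histone genes can bind transcripts of their near-identical copies, so the gene assignment of the higher members is uncertain.

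The remaining lists showed fewer calls or no clear balance. Glycolysis had 1 higher and 2 lower of 21, where SLC2A3, a glucose transporter, was lower (-0.93, limma adjusted p = 5.35e-06) and PFKP, a phosphofructokinase, higher (0.42, 9.47e-04). Sterol and fatty acid synthesis had 3 higher and 5 lower of 22, and p53 targets 3 and 5 of 20. Antigen presentation had 3 and 3 of 27, STAT5 targets 2 and 2 of 16, and MYC and its partners 1 and 1 of 11. The shares higher and lower were 13.6% and 22.7% for sterol synthesis, 15% and 25% for p53 targets and 11.1% each for antigen presentation. They were 12.5% each for STAT5 targets, 9.09% each for MYC and its partners, and 4.76% and 9.52% for glycolysis. Of all genes tested, 9.59% were higher and 12.6% lower. Without HL-60 shSYK_2 replicate 1 the higher and lower counts were 2 and 2 for sterol synthesis, 3 and 1 for p53 targets, 1 and 3 for antigen presentation, 1 and 2 for STAT5 targets, and 1 and 0 for MYC and its partners. The LSS gene of cholesterol synthesis fell with both hairpins and further with shSYK_2, by -0.48 (limma adjusted p = 5.25e-04). BBC3, the p53 target PUMA, was higher by 0.90 (limma adjusted p = 0.00117), at a log2 level under 6.

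The line was checked against markers of its own and of other cell types. All 5 promyelocyte markers (MPO, ELANE, PRTN3, AZU1 and CTSG) were at a log2 level of at least 6.13 on every HL-60 array, and their summed intensity was 13959 to 14747 with shLuc, 9654 to 9893 with shSYK_1 and 12119 to 12231 with shSYK_2. The summed intensity of 4 monocyte markers was 146 to 157, 852 to 860 and 393 to 452 in the same order, carried mainly by CD14 and FCN1, while CSF1R and CD68 were below 5 on the log2 scale on every HL-60 array. The 12 eosinophil, basophil and mast cell markers summed to 5286 to 5415 with shLuc, 2539 to 2827 with shSYK_1 and 5645 to 5806 with shSYK_2. PRG2 and RNASE2 were higher and KIT was lower, and 8 or 9 of the 12 markers lay below an intensity of 20, near the median of all probe sets, in each group. Markers of red cells, platelets, lymphocytes and epithelium or stroma had 5 calls in 67 measured genes, all at a log2 level under 6 and 0 of them made without HL-60 shSYK_2 replicate 1 in the same direction. The 5 neutrophil markers (LTF, CAMP, LCN2, CEBPE and CEACAM8) summed to 205 to 228 over all HL-60 arrays. The part of cell composition in the differences was not tested.

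The same hairpin difference was available in MOLM-14 and U937, on arrays of their own. Of the 1167 genes higher in HL-60, 570 (48.8%) were also higher in MOLM-14, where 1600 (13.2%) were, and 445 (38.1%) in U937, where 1443 (11.9%) were. These shared genes made up 35.6% of the MOLM-14 calls and 30.8% of the U937 calls. Of the 1537 lower genes, 752 (48.9%) were lower in MOLM-14, where 1555 (12.8%) were, and 542 (35.3%) in U937, where 1354 (11.1%) were. The same call was made in neither line for 483 higher and 621 lower genes. Across genes, which are not independent replicates, the HL-60 difference had a correlation of 0.48 with MOLM-14 and 0.35 with U937.

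NFU1, UROS and MED21 were close in size in all 3 lines. NFU1 differed by 1.74 in HL-60, 1.79 in MOLM-14 and 1.78 in U937, and UROS by 1.60, 1.82 and 1.28. MED21 differed by -2.18, -2.18 and -2.47. Of the 12 largest higher genes, 10 were also higher in both other lines, and of the 12 largest lower genes, 8 were also lower in both. For NFU1, UROS and MED21 the test of HL-60 against the other lines gave limma adjusted p = 0.803, 0.825 and 0.61.

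A contrast of the HL-60 difference minus the mean of the MOLM-14 and U937 differences called 1469 genes (12.1%), 622 positive (5.11%) and 847 negative (6.96%). It called 847 without HL-60 shSYK_2 replicate 1, 712 without shSYK_1 replicate 1 and 2537 without shSYK_2 replicate 2. With arrays centred on their median, 61.8% of the called genes were positive against 42.3% as deposited. PRG2 was the largest higher gene that did not differ in the other lines beyond their spread, with -0.03 in MOLM-14 and -0.14 in U937 (line contrast 1.99, SE 0.159, limma adjusted p = 2.05e-06). OLR1 was its counterpart among lower genes, with -0.13 in MOLM-14 and 0.06 in U937 (line contrast -2.72, SE 0.219, limma adjusted p = 2.07e-06).

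S100A8 and S100A9, calcium-binding proteins of neutrophils and monocytes, were lower with shSYK_2 in all 3 lines and by far less in HL-60. S100A8 differed by -0.61 in HL-60, -3.56 in MOLM-14 and -3.22 in U937, a line contrast of 2.79 (SE 0.158, limma adjusted p = 3.83e-08). CXCL8, the chemokine interleukin-8, measured 10.92 and 10.73 with shSYK_1 and 10.50 and 10.51 with shSYK_2 in HL-60. It was not called there (-0.32, limma adjusted p = 0.627) and was lower by -3.20 in MOLM-14 and -2.20 in U937. LY86 had opposite signs, with 0.66 in HL-60, -0.85 in MOLM-14 and -0.96 in U937 (line contrast 1.57, limma adjusted p = 3.83e-08). CD14 was lower in HL-60 and not called in the other lines, with -0.16 in MOLM-14 and -0.17 in U937 (line contrast -0.94, limma adjusted p = 0.00626). As a list, monocyte and macrophage genes were lower in other lines too. Of 42, 20 were lower and 0 higher in MOLM-14 (median -0.36), and 10 and 3 in U937 (median -0.11). The contrast called 7 positive and 5 negative. Of 34 lysosomal genes, 17 were lower and 2 higher in MOLM-14, and 10 and 4 in U937. Of 36 oxidative phosphorylation genes, the counts were 24 and 0, and 14 and 2. Among all genes, 12.8% were lower and 13.2% higher in MOLM-14, and 11.1% and 11.9% in U937.

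**Figure D4:**
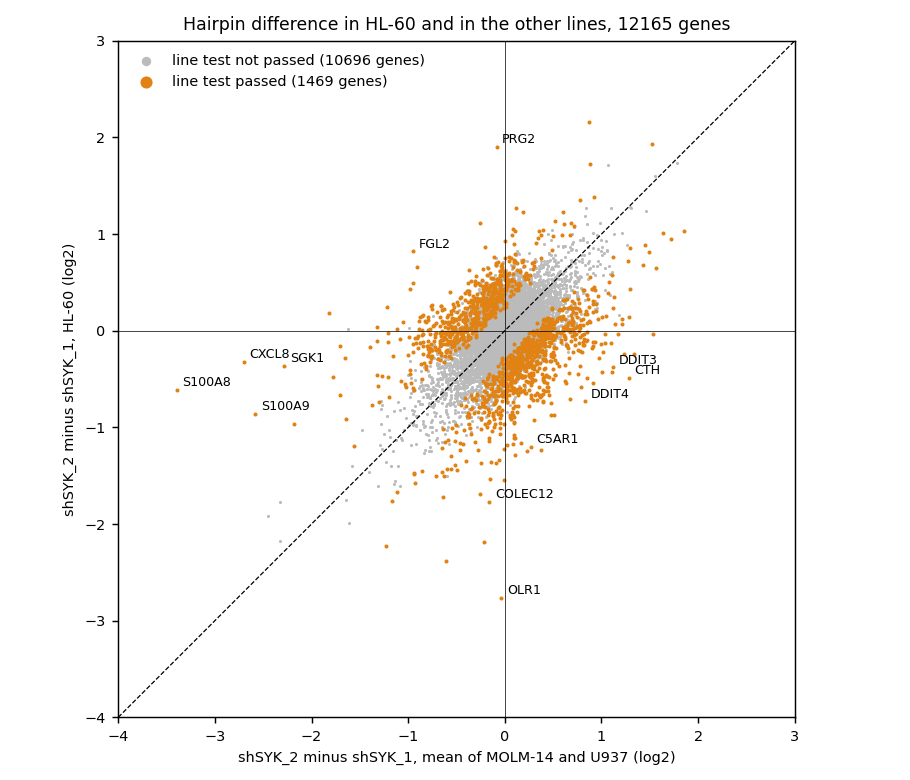
Difference between shSYK_2 and shSYK_1 (log2) in HL-60 on the vertical axis against the mean difference of MOLM-14 and U937 on the horizontal axis, one point per gene, with the 1469 genes called by the line contrast in orange and a dashed line of equality. The labelled genes have the largest line contrasts: S100A8, S100A9, CXCL8 and SGK1 lie far to the left, where the other lines were lower with shSYK_2, and OLR1 lies at the bottom with a mean near 0 in the other lines.

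Genes of the ATF4 amino acid response, which raises amino acid transport and tRNA charging under stress, differed between lines in direction. In HL-60, 9 of 32 were lower (28.1%) and 2 higher, with a median of -0.16, and 5 were lower and 1 higher without HL-60 shSYK_2 replicate 1. In MOLM-14, 27 were higher and 1 lower, with a median of 0.85, and in U937, 12 were higher and 0 lower, with a median of 0.29. Among all genes, 12.6% were lower in HL-60, and 13.2% were higher in MOLM-14 and 11.9% in U937. The line contrast called 28 of 32 negative and 0 positive, and 23 and 0 without HL-60 shSYK_2 replicate 1. DDIT4, a stress-induced inhibitor of mTORC1, measured 7.53 and 7.63 with shSYK_1, 6.71 and 7.0 with shSYK_2 and 6.64 to 6.94 with shLuc in HL-60. Its hairpin difference was -0.73 in HL-60, 1.11 in MOLM-14 and 0.55 in U937 (line contrast -1.56, SE 0.169, limma adjusted p = 3.37e-05). DDIT3, the stress factor CHOP, differed by -0.38 in HL-60 (limma adjusted p = 0.0264, and -0.24 with 0.288 without HL-60 shSYK_2 replicate 1), 1.06 in MOLM-14 and 1.18 in U937 (line contrast -1.50, limma adjusted p = 1.61e-05).

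The cell cycle lists also differed between lines, mainly from U937. Of 47 G1/S genes, 40 were lower with shSYK_2 in U937, with a median of -0.87, against 3 in HL-60 and 7 in MOLM-14. For this list the line contrast called 32 positive and 0 negative. Of all genes, 11.1% were lower in U937, 12.6% in HL-60 and 12.8% in MOLM-14. Of 42 G2/M genes, 40 were lower in U937, with a median of -0.85, against 13 in HL-60 and 14 in MOLM-14, and the contrast called 23 positive and 1 negative, and 17 and 0 without HL-60 shSYK_1 replicate 1. PCNA, the replication clamp, showed the pattern at a high level, with -0.03 in HL-60, 0.02 in MOLM-14 and -0.92 in U937 (line contrast 0.42, limma adjusted p = 0.00322). CCNE2 was lower in each of the 3 lines, by -1.77, -1.73 and -2.93. CDKN1B was lower in HL-60 and higher in U937, with -0.72 and 0.42, and 0.25 in MOLM-14 (line contrast -1.05, limma adjusted p = 1.49e-04).

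MYC targets were higher in 26 of 36 members in MOLM-14, with a median of 0.35, in 14 in HL-60, with a median of 0.18, and in 3 in U937, with a median of 0.09. The line contrast called 1 positive and 1 negative for that list. Among all genes, 13.2% were higher in MOLM-14, 9.59% in HL-60 and 11.9% in U937. MYC itself was higher with shSYK_2 in each line, by 0.31 in HL-60, 0.78 in MOLM-14 and 0.61 in U937, and by less in HL-60 (line contrast -0.38, SE 0.0925, limma adjusted p = 0.0137). FLT3 differed by 0.87, 0.98 and 0.23 in the same order (line contrast 0.27, limma adjusted p = 0.404). For SYK, lower with shSYK_2 in both other lines, the line contrast was 0.32 and was not called (limma adjusted p = 0.0671). Primary granule genes had a median of 0.28 in HL-60, -0.09 in MOLM-14 and 0.01 in U937, and the contrast called 6 positive and 0 negative. Of 15 members, 2 were higher and 4 lower in MOLM-14, and 5 and 2 in U937. CTSG was also higher in both other lines, and its contrast was not called (0.20, limma adjusted p = 0.141). AZU1 was also higher in U937 (1.04), CST7 in MOLM-14 (0.89) and NKG7 in U937 (0.26). RNASE2 was lower in both other lines, and DEFA4 was called in neither.

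**Figure D5:**
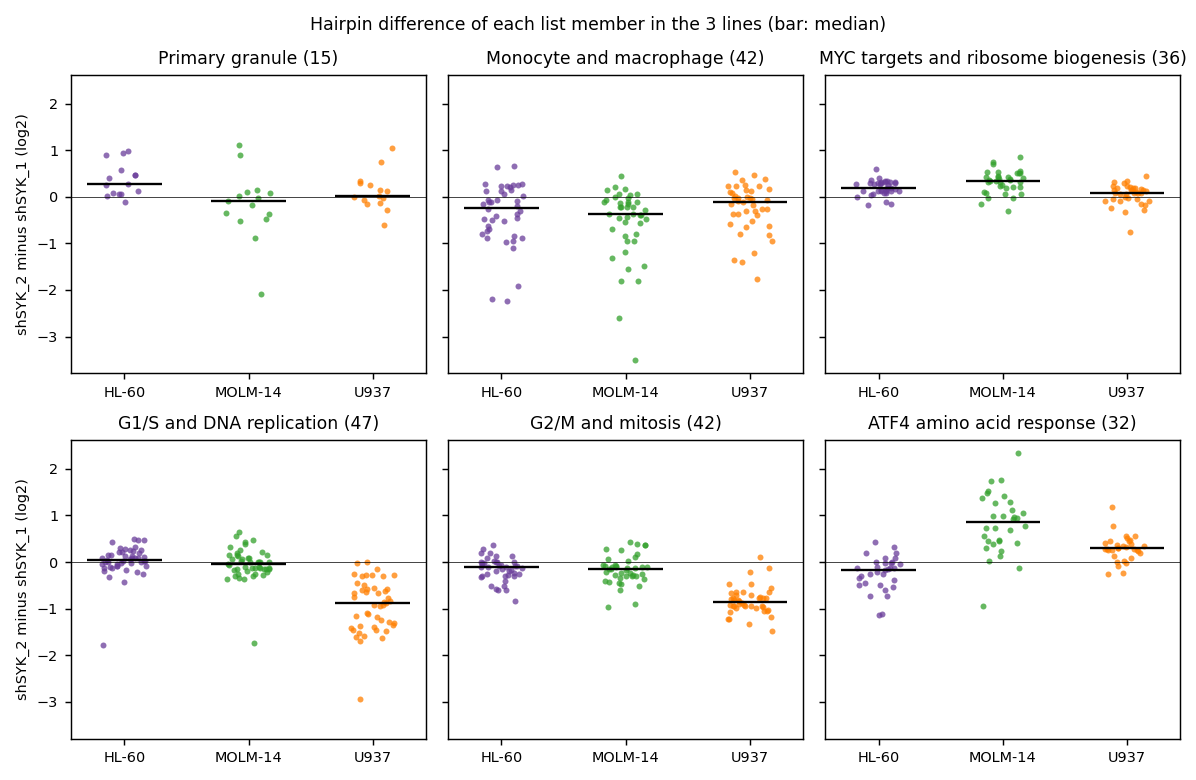
Difference between shSYK_2 and shSYK_1 (log2) of each measured gene of 6 lists in HL-60, MOLM-14 and U937, with a bar at the median. G1/S and G2/M genes lie near 0 in HL-60 and MOLM-14 and below 0 in U937 (medians -0.87 and -0.85), and ATF4 response genes lie above 0 in MOLM-14 and slightly below it in HL-60 (medians 0.85 and -0.16).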

How the data were processed

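Total RNA on 21 Affymetrix arrays was compared. The deposited table held linear intensity values from RMA, which the submitters' processing notes name without a version, and the scale was read from the values. Earlier steps are not stated here. They ran from 3.23 to 13025, and, since the tests were planned for log2 values, log2 was taken without a pseudocount. Of 22277 probe sets, 19724 carried 1 symbol (568 several, 1923 none in the annotation used, 62 controls left out). Symbols were updated through RefSeq (GRCh38.p14, names only) for 19707. The brightest probe set stood for each of 12165 genes.

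A model with 9 group means was fitted with limma 3.58.1 in R 4.3.3 (12 residual and 4.09 prior degrees of freedom), two-sided, with Benjamini-Hochberg adjustment. On simulated data with 12165 genes it recovered 58 of 100 changes of 0.5 and 97 of 100 of 1 (log2). This was for shSYK_2 minus shSYK_1 in HL-60, and 14 unchanged genes were called. The simulation gave every group the same normal spread per gene, while the real HL-60 shSYK_2 replicates differed more than other pairs. It therefore does not give the recovery in the real comparison. The 2 or 3 arrays per group limit the precision.

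Named genes were SYK, MYC and FLT3, the 12 largest called differences each way (groups not overlapping, mean log2 of at least 6 in the higher of the 2 hairpin groups), 6 each way for the line contrast, and up to 8 or 5 called members per list by p. MPO, ELANE, PRTN3, CSF1R, CD68 (markers), LTF, CAMP, LCN2, TYROBP, INPP5D, ISG15, CCL2, CEBPA, CEBPE, GFI1 and PCNA were added as markers or list members after their values were seen. Members, lists and rules were chosen with earlier results of these data known. Replicate numbers were not used to pair samples in the main fit.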

Additional observations from a re-analysis of the deposited data

Results flagged for a closer look

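Of the 1469 genes called by limma for the HL-60 difference minus the mean of MOLM-14 and U937 (adjusted p below 0.05), 22 are listed here: those among SYK, MYC, FLT3, the 12 largest differences each way in HL-60 and the 6 largest contrasts each way. The values are the HL-60 difference minus the mean of the other 2 lines, on the log2 scale. Positive contrasts were 2.79 for S100A8, 2.38 for CXCL8, 1.99 for PRG2, 1.92 for SGK1, 1.77 for FGL2, 1.71 for S100A9, 1.29 for ITM2C, 1.15 for RETN, 0.84 for OPN3, 0.47 for MXRA7 and 0.42 for MLC1. For ITM2C, OPN3, MXRA7 and MLC1 the 3 lines had the same sign and HL-60 the larger difference. FGL2, a secreted fibrinogen-like protein, was higher with shSYK_2 by 0.82 in HL-60 (0.75 without HL-60 shSYK_2 replicate 1, not called, limma adjusted p = 0.112), differed by 0.04 in U937 and was lower by -1.94 in MOLM-14. SGK1, a kinase downstream of PI3 kinase, differed by -0.36 in HL-60 (limma adjusted p = 0.264), -2.41 in MOLM-14 and -2.15 in U937.

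Negative contrasts were -2.72 for OLR1, -1.77 for CTH, -1.61 for COLEC12, -1.56 for DDIT4, -1.50 for DDIT3, -1.47 for C5AR1, -1.08 for PTX3, -1.0 for TREM2, -0.59 for KAT2B, -0.55 for LYPLA1 and -0.38 for MYC. CTH, an enzyme of cysteine synthesis, differed by -0.49 in HL-60 (limma adjusted p = 0.163), 2.33 in MOLM-14 and 0.24 in U937, so its contrast came mainly from MOLM-14. C5AR1, the receptor for the complement fragment C5a, was lower by -1.20 in HL-60 and differed by 0.14 in MOLM-14 and 0.40 in U937, neither of which passed.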

How the results depend on the processing

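Of 165 named genes, 131 kept their direction and side of the threshold without HL-60 shSYK_2 replicate 1, 162 with centred arrays and 159 after quantile normalisation. Placing that array in shSYK_1 left 32 genes called for shSYK_2 minus shSYK_1, 516 for shSYK_2 minus shLuc and 379 for the line contrast, and gave 0.00 for SYK, 0.23 for MYC (limma adjusted p = 0.447), 0.68 for FLT3 (0.304) and -0.02 for E2F4. For shSYK_2 minus shSYK_1 the count was 1252 with HL-60 arrays only, 1274 with array weights, 1119 with a minimum difference of 0.5, and 1529 to 3596 leaving out 1 array. For shSYK_1 minus shLuc it was 1928 with HL-60 arrays only and 1203 with the minimum. For shSYK_2 minus shLuc it was 1116, 1055 with array weights, 887 with the minimum and 1248 to 3549 leaving out 1 array (1248 without HL-60 shSYK_2 replicate 1). For the line contrast it was 632 with array weights, 861 with the minimum and 712 to 2537 leaving out 1 array. Centring left 34.7% of shSYK_1 calls against shLuc risen, against 51.5%.

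Same-numbered HL-60 arrays of the SYK hairpins deviated with a correlation of -0.214. With 2 arrays per hairpin, both replicate numbers give the same value by construction, so it cannot show whether the numbers pair samples. With the replicate block, shSYK_2 minus shSYK_1 gave 2061 calls, shSYK_1 minus shLuc 2134, shSYK_2 minus shLuc 1441 and the line contrast 791. With the numbers crossed, chosen after seeing the data, the counts were 2224 for the hairpins, 1584 for shSYK_2 minus shLuc and 943 for the line contrast.

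SYK also passed at -0.21 (limma adjusted p = 0.0335) with 16 added to each intensity and at -0.24 (0.0386) without the dimmest 40% of genes, and ranged from -0.36 to -0.11 leaving out 1 array. MYC ranged from 0.26 to 0.36 and did not pass with HL-60 arrays only (0.31, limma adjusted p = 0.0961), array weights (0.31, 0.0683) or the minimum difference. Averaging probe sets reversed CXCL8 (0.02), HP (0.22) and CCND2 (-0.04). The causes were not tested.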
